A study of Mus musculus with 10 samples.

Results

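REV-ERB proteins and the PAR bZIP factors are the output arm of the circadian clock. The 8 genes described here were Nr1d1, Nr1d2, Rora, Dbp, Tef, Hlf, Nfil3 and Usp2, out of 12393 genes measured in mouse lung. They were taken by name from the array's annotation, using the probe sets that carried exactly 1 symbol, and 16 probe sets matched. For each gene the brightest probe set, by mean over the 10 arrays, was used, and the other 8 served as a check. The set was proposed with results of these data in view and counts as chosen by the log2 differences between the groups. Those differences are therefore a description. Where a gene of the set is said to pass or not pass the threshold, this only places it in the fit over all probe sets, and nothing is supported with it.

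In the clock, BMAL1 and CLOCK switch on genes through E-box sequences, among them the period and cryptochrome genes that later shut both activators off. They also switch on Nr1d1, Nr1d2, Dbp, Tef and Hlf. The REV-ERB proteins encoded by Nr1d1 and Nr1d2 compete with ROR activators for one kind of response element and repress Arntl, the BMAL1 gene, and Nfil3. The PAR bZIP activators DBP, TEF and HLF compete with the repressor NFIL3 for another element, the D-box. In lung these loops run in airway club cells and other cell types, and the REV-ERB proteins are known there for restraining inflammatory genes.

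The lungs were those of male mice of the inbred strain C57BL/6 at an age of 6 to 8 weeks. One group of 5 mice was kept in normoxia and the other group of 5 was exposed to intermittent hypoxia, in which inspired oxygen falls and recovers repeatedly. Neither group carried a transgene, deletion or further treatment per the labels. RNA of each lung went on 1 Affymetrix array, the Mouse Genome 430A 2.0, and the series concerns the effect of this exposure on the alveolar surface of the adult lung. How low oxygen went, how long the mice were exposed and at what hour the lungs were taken, which matters for clock genes, is not given in the sources used here. In whole lung, fewer cells of a type and less RNA per cell cannot be told apart.

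Values were log2 levels, so a difference of 1 is a 2-fold change, and array medians lay between 7.69 and 7.73. No 2 arrays were identical, with correlations from 0.982 to 0.996 between arrays. Normoxia arrays 2, 3 and 4 had a narrower spread over probe sets (SD 1.89 to 1.93) than the remaining 7 (SD 1.99 to 2.05). Normoxia array 2 stood apart in skeletal muscle transcripts. It was the highest array for all 7 muscle markers, with Acta1, the skeletal muscle actin, at 13.12 against 5.68 to 6.99 on the other arrays. Lung markers other than Nkx2-1 were high on all arrays, up to a mean of 14.59 for the surfactant gene Sftpc. Nkx2-1 was dim, at a mean of 6.7, above that of 32.6% of probe sets. Of the 10 lung markers 1 was higher after intermittent hypoxia (Aqp5, a water channel of alveolar cells, 0.53, SE 0.10, limma adjusted p = 0.00915) and none lower.

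Sequence motifs that the clock factors read were looked for in the 250 bases before the start site of each gene, in RefSeq promoters of build GRCm38.p6. All 8 genes matched, with 9 promoters because Tef has 2. The windows below are those in which a motif was found, shown so that the letters behind each match can be read. Each is written 5′ to 3′ on the gene's strand, with the motif in capitals and up to 20 bases on each side.
Nr1d1, chr11:98775380-98775425, minus strand: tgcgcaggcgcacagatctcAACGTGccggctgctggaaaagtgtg
Tef, first promoter, chr15:81802526-81802571, plus strand: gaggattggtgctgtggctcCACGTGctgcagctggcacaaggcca
Tef, second promoter, chr15:81811256-81811301, plus strand: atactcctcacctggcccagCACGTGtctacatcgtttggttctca
Nfil3, chr13:52981040-52981071, minus strand: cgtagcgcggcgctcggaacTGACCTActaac
Hlf, chr11:90390918-90390946, minus strand: tcggcgcgcggtgcgggcccTGACGTCAc

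The E-box CACGTG stood in both Tef promoters, its first letter 127 and 138 bases before the start, and in 6.02% of all 32851 promoters of the same length. The variant CACGTT, which BMAL1 and CLOCK also bind, stood on the opposite strand 28 bases before the Nr1d1 start and in 3.85% of all promoters. Nfil3 held TAGGTCA, a core of the element shared by REV-ERB and ROR proteins, on the opposite strand 12 bases before its start, as did 2.23% of promoters. Hlf held the cyclic AMP response element TGACGTCA 9 bases before its start, as did 1.55%. The D-box TTANGTAA, in 2.06% of promoters, and the second REV-ERB and ROR core TGGGTCA, in 3.24%, were not found in the 9 windows. Both strands were searched, and no match overlapped another kind of motif. A match is a description of these letters and does not show that a factor bound there.

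The exposed lungs had more RNA for both REV-ERB genes and for Dbp, and less for the other 5 genes of the set. By size the set split widely. Nr1d1 and Dbp differed more than 4-fold, while Nr1d2, Tef, Hlf, Nfil3, Usp2 and Rora lay between 0.719 and 1.52 of the normoxia level. Of the 8 genes, 4 passed an adjusted p of 0.05 in the limma fit over all probe sets, Nr1d1 and Dbp as higher and Hlf and Usp2 as lower. Over all genes 12.5% passed, 8.93% as higher and 3.6% as lower. As the set was chosen with this contrast known, nothing is read from its count. The groups did not overlap in 2 of the 8 genes, Nr1d1 and Hlf, against 8.61% of all genes, 5.76% as higher and 2.85% as lower. The median log2 difference was -0.25 in the set and 0.01 over all genes. Of 2699 probe sets past the threshold 71.2% were higher, or 59.1% after quantile normalization, and the signs of the 8 genes were the same under both.

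**Figure D1:**
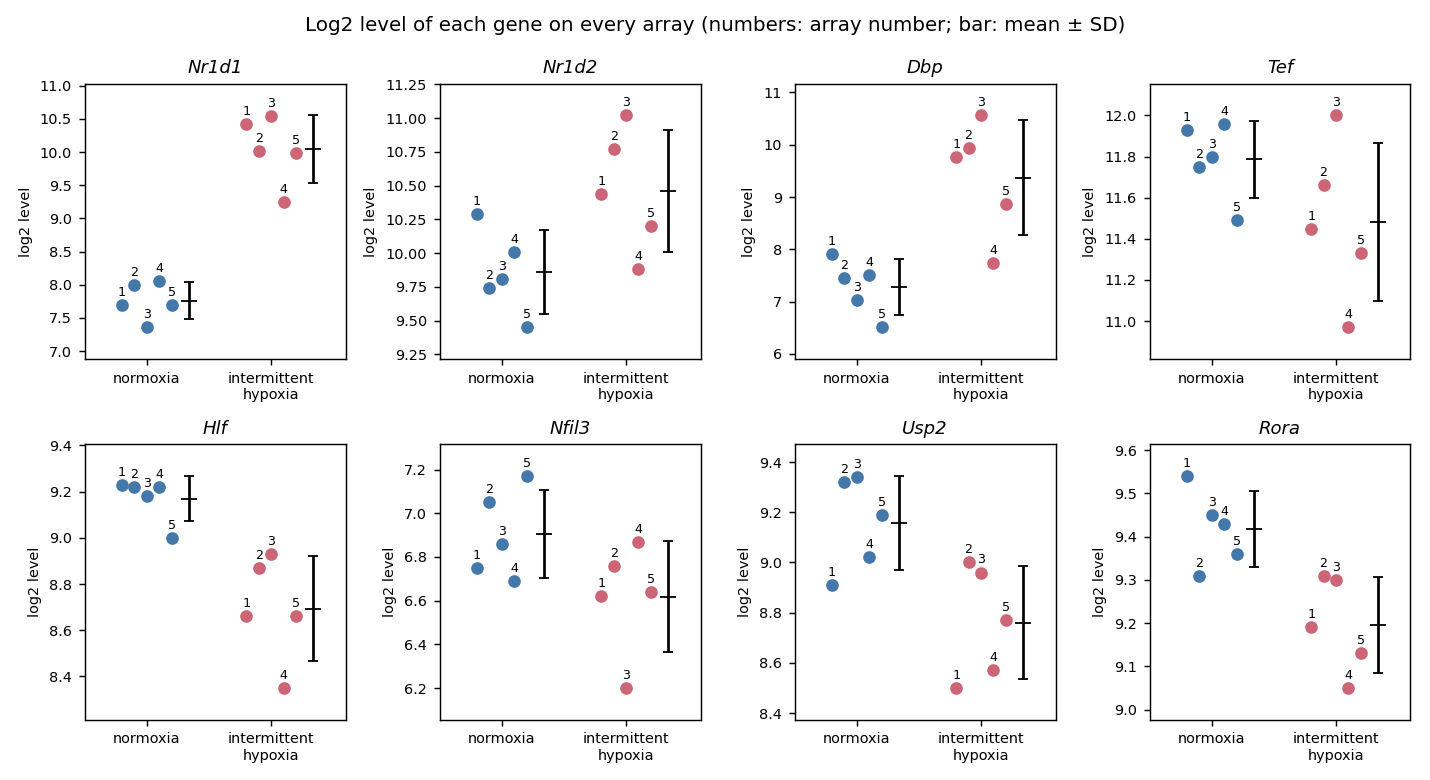
Log2 level (vertical axis) of the 8 genes on each of the 5 normoxia and 5 intermittent hypoxia arrays, with array numbers beside the points and the mean ± SD of each group in black. The groups lie apart for Nr1d1 and Hlf, and hypoxia array 4 is the lowest hypoxia array for Nr1d1, Nr1d2, Dbp, Tef, Hlf and Rora.

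Nr1d1 encodes REV-ERBα, a nuclear receptor that represses by recruiting a co-repressor complex. Its log2 levels on normoxia arrays 1 to 5 were 7.69, 8.00, 7.36, 8.05 and 7.69. On hypoxia arrays 1 to 5 they were 10.43, 10.01, 10.55, 9.25 and 9.98. The lowest exposed lung, array 4, was still above the highest control, array 4, by 1.2. The group means were 7.76 ± 0.28 and 10.04 ± 0.51 (SD, n = 5 each), a log2 difference of 2.29 (SE 0.21). With any 1 array left out the difference stayed between 2.16 and 2.48, and without normoxia arrays 2 to 4 it was 2.35. Nr1d1 had 1 probe set. In RefSeq the gene overlaps Thra, a thyroid hormone receptor gene, whose own log2 difference was 0.29 (SE 0.09), and the part of shared sequence in the Nr1d1 values was not tested.

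Nr1d2 encodes REV-ERBβ, the paralog with overlapping function. Normoxia arrays 1 to 5 read 10.29, 9.74, 9.81, 10.01 and 9.45, and hypoxia arrays 1 to 5 read 10.44, 10.77, 11.02, 9.88 and 10.20. The groups overlapped, since hypoxia arrays 4 and 5 lay below normoxia array 1. The log2 difference was 0.60 (SE 0.20), and dropping single arrays moved it between 0.46 and 0.75. A second, dimmer probe set gave 0.47 (SE 0.16). The limma fit placed neither probe set past the threshold, but the chosen one passed without normoxia array 1 or hypoxia array 4, and the mean of both passed too.

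Rora encodes RORα, the activator that binds the same elements as the REV-ERB proteins. Its levels were 9.54, 9.31, 9.45, 9.43 and 9.36 on normoxia arrays 1 to 5. They were 9.19, 9.31, 9.30, 9.05 and 9.13 on hypoxia arrays 1 to 5. The ranges met only at 9.31. The log2 difference was -0.22 (SE 0.07), not past the threshold. After quantile normalization it was -0.32 and passed, and it also passed without normoxia array 5 and with SAM. The 2 other probe sets gave -0.16 (SE 0.11) and -0.04 (SE 0.07).

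Among the PAR bZIP activators, Dbp stood apart from Tef and Hlf. DBP is the D-box activator with the widest daily swing in many tissues. Dbp read 7.91, 7.45, 7.04, 7.51 and 6.51 on normoxia arrays 1 to 5 and 9.76, 9.93, 10.56, 7.73 and 8.86 on hypoxia arrays 1 to 5. Hypoxia array 4 fell inside the normoxia range, below normoxia array 1, while the other 4 exposed lungs lay above every control. The means were 7.28 ± 0.53 and 9.37 ± 1.10 (SD, n = 5 each), a log2 difference of 2.09 (SE 0.43), or 4.24-fold. A second probe set gave 1.47 (SE 0.36). Among the exposed lungs its array order was close to that of the first, with hypoxia array 3 highest at 9.76 and hypoxia array 4 lowest at 7.15. Among the controls the order differed. Normoxia array 5, the lowest control on the first, read 6.97 on the second, above normoxia arrays 2 and 3 at 6.91 and 6.65. In RefSeq Dbp overlaps Sphk2, a sphingosine kinase gene, whose own difference was -0.13 (SE 0.07).

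Tef, for thyrotroph embryonic factor, and Hlf, for hepatic leukemia factor, encode the other 2 PAR bZIP activators. The Tef probe set read 11.93, 11.75, 11.80, 11.96 and 11.49 on normoxia arrays 1 to 5 and 11.45, 11.66, 12.0, 10.97 and 11.33 on hypoxia arrays 1 to 5. Hypoxia array 3 held the highest value of all 10 arrays and hypoxia array 4 the lowest. The log2 difference of -0.30 (SE 0.16) was not past the threshold, and dropping single arrays moved it between -0.43 and -0.18. It was -0.46 after quantile normalization. The other Tef probe sets gave -0.11 (SE 0.11) and 0.12 (SE 0.09), so the 3 did not share a sign.

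Hlf read 9.23, 9.22, 9.18, 9.22 and 9.0 on normoxia arrays 1 to 5 and 8.66, 8.87, 8.93, 8.35 and 8.66 on hypoxia arrays 1 to 5. Every exposed lung lay below every control. The means were 9.17 ± 0.10 and 8.69 ± 0.23 (SD, n = 5 each), a log2 difference of -0.48 (SE 0.10), or 0.719 of the normoxia level. The second Hlf probe set gave -0.33 (SE 0.14), with overlapping groups, and was not past the threshold.

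Nfil3 encodes E4BP4, the repressor that opposes the PAR bZIP proteins at the D-box. It read 6.75, 7.05, 6.86, 6.69 and 7.17 on normoxia arrays 1 to 5 and 6.62, 6.76, 6.20, 6.87 and 6.64 on hypoxia arrays 1 to 5. The groups overlapped and the log2 difference was -0.28 (SE 0.12), not past the threshold. Hypoxia array 3, the highest for Nr1d1, Nr1d2, Dbp, Tef and Hlf within its group, was the lowest for Nfil3. Nfil3 had 1 probe set.

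Usp2 encodes a ubiquitin protease whose transcript cycles in many tissues and which acts on clock proteins. It read 8.91, 9.32, 9.34, 9.02 and 9.19 on normoxia arrays 1 to 5 and 8.50, 9.0, 8.96, 8.57 and 8.77 on hypoxia arrays 1 to 5. Only normoxia array 1 lay within the range of the exposed lungs. The log2 difference was -0.40 (SE 0.12), and the second probe set gave -0.52 (SE 0.15). The call held in 4 of the 10 fits with an array left out. It was lost when normoxia 2, 3 or 4 or hypoxia 1, 4 or 5 was dropped, and with SAM.

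**Figure D2:**
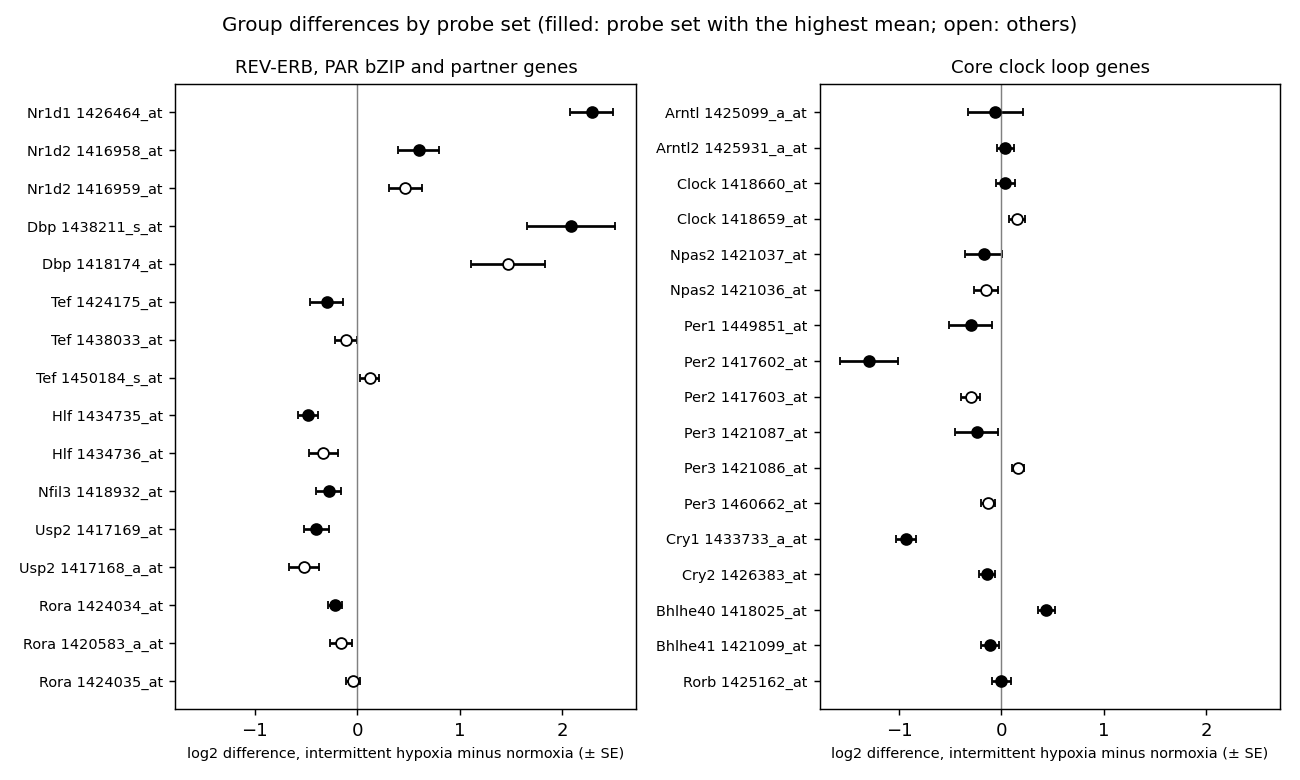
Log2 difference, intermittent hypoxia minus normoxia (horizontal axis, ± limma SE), for every probe set of the 8 genes (left) and of 12 core clock loop genes (right), with the probe set of highest mean filled. Nr1d1 at 2.29 and Dbp at 2.09 lie farthest to the right, followed by the second Dbp probe set at 1.47, and Per2 at -1.29 and Cry1 at -0.93 lie farthest to the left.

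Without normoxia arrays 2, 3 and 4, the arrays of narrower spread, 1 of the 8 genes passed, Nr1d1, and 0.0807% of all genes did. The differences of the other genes were then 2.16 for Dbp, 0.59 for Nr1d2, -0.42 for Hlf, -0.29 for Usp2, -0.23 for Tef, -0.34 for Nfil3 and -0.25 for Rora. All signs stayed as with 10 arrays, with 2 controls left.

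The genes also varied from animal to animal within a group, and this variation does not use the contrast that chose them. Each value was expressed as a deviation from its group mean. Pearson's r was computed over the 10 arrays for all 28 pairs, with an exact two-sided permutation test that shuffled values only within groups. After Benjamini-Hochberg adjustment 13 pairs passed, 11 positive and 2 negative. Nr1d2, Dbp, Tef, Hlf and Rora formed a block in which all 10 pairs passed, with r from 0.78 to 0.96. By Spearman's rho 11 of the 28 pairs passed, and of this block the pair Hlf and Rora did not (rho 0.75, adjusted exact permutation p = 0.0697). With a gene's probe sets averaged, 4 of these 10 pairs passed (Nr1d2 with Dbp, Tef and Hlf, and Dbp with Hlf). Without the 2 arrays farthest from the median, hypoxia 3 and 4 for each of the 10 pairs, none passed and r lay between 0.58 and 0.93.

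The pair Nr1d2 and Tef had r = 0.96 and rho = 0.93 (exact permutation p = 0.000278 and 0.00153, adjusted p = 0.00389 and 0.0207). Within normoxia alone r was 0.91 and within intermittent hypoxia alone 0.99. Dbp and Hlf had r = 0.94 and rho = 0.90 (exact permutation p = 0.000208 and 0.00417, adjusted p = 0.00389 and 0.0207), with 0.90 and 0.95 in the groups taken alone. Without hypoxia arrays 3 and 4 r was 0.93 for Nr1d2 and Tef (adjusted exact permutation p = 0.117) and 0.79 for Dbp and Hlf (adjusted exact permutation p = 0.161). Nr1d2 and Dbp had r = 0.94 and rho = 0.98 (exact permutation p = 0.000486 and 0.000139, adjusted p = 0.00454 and 0.00389), and without those arrays r was 0.91 (adjusted exact permutation p = 0.117).

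Nfil3 ran the other way. Its r was -0.80 with Nr1d2 (rho -0.81, exact permutation p = 0.0117 and 0.00826, adjusted p = 0.0299 and 0.0306) and -0.85 with Tef (rho -0.75, exact permutation p = 0.00444 and 0.0122, adjusted p = 0.0156 and 0.0369). Without hypoxia arrays 3 and 4 these were -0.60 and -0.67 and did not pass (adjusted exact permutation p = 0.385 and 0.290). The Nfil3 promoter window above holds the REV-ERB and ROR core, as did 2.23% of all promoters. Whether this match bears on the correlations was not tested. With Dbp the r of Nfil3 was -0.74 (rho -0.72, exact permutation p = 0.0324 and 0.0244), not past the threshold after adjustment (adjusted p = 0.0649 and 0.0569).

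Nr1d1, with the widest group difference, was less tied to the block. It passed with Dbp (r = 0.80, rho = 0.70, exact permutation p = 0.0230 and 0.0431, adjusted p = 0.0495 and 0.0862), but r was 0.38 without hypoxia arrays 3 and 4, so this relation rests on those 2 arrays. Within normoxia alone it was 0.36 and within intermittent hypoxia alone 0.92. Its r with Nr1d2 was 0.61 (rho 0.62, exact permutation p = 0.106 and 0.0782, adjusted p = 0.156 and 0.129). Usp2 passed with none of the other 7 genes, with r from -0.02 to 0.50 and unadjusted exact permutation p values from 0.203 to 0.961. Its r differed in sign between the groups taken alone, at -0.72 in normoxia and 0.74 in intermittent hypoxia with Nr1d2, -0.58 and 0.59 with Dbp, -0.51 and 0.73 with Tef and -0.67 and 0.77 with Rora. This difference between groups of 5 arrays was not tested.

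Arntl, which the REV-ERB proteins repress, was set against the 8 genes in the same way, a choice made with its order beside Dbp already known. Dbp itself had r of at least 0.8 with 5 of the other genes of the set. The values for Arntl are therefore not independent of each other or of that choice. They are given here as a description, with no p. Counts of calls for these pairs under each processing setting are given at the end and are no independent support. Pearson's r was -0.91 with Tef, -0.84 with Nr1d2, -0.83 with Hlf, -0.82 with Dbp and -0.74 with Rora, and 0.82 with Nfil3. It was -0.51 with Nr1d1 and -0.41 with Usp2. Without the 2 arrays farthest from the median the first 6 kept their signs, from -0.79 for Tef to 0.31 for Nfil3.

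**Figure D3:**
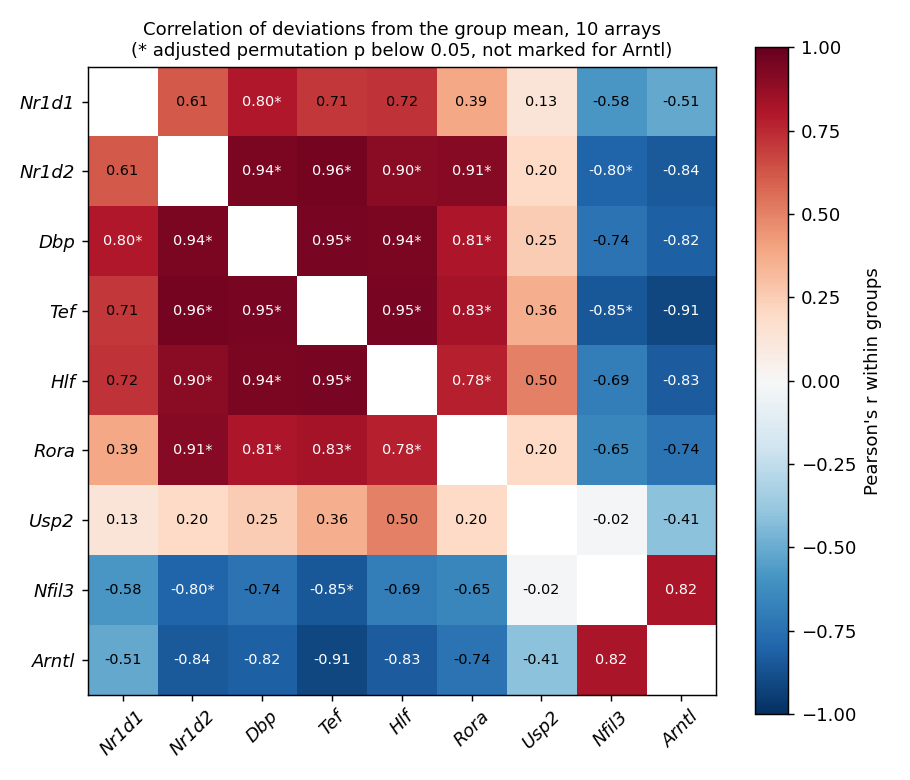
Pearson's r (colour and number) between deviations from the group means over 10 arrays, for the 8 genes and Arntl, with an asterisk where the adjusted exact permutation p of 2 genes of the set is below 0.05 (Arntl is not marked). Nr1d2, Dbp, Tef, Hlf and Rora form a positive block with r from 0.78 to 0.96, Nfil3 and Arntl run against it, and Usp2 stands outside.

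The variation within groups and the difference between groups did not run along the same line. Over the levels of all 10 arrays Dbp and Nr1d2 correlated at 0.95, but Dbp and Hlf at -0.36 and Dbp and Tef at 0.10, although within groups both pairs reached 0.94 and 0.95. Hypoxia array 4 had Dbp at 7.73, close to normoxia array 4 at 7.51. Its Hlf of 8.35 was 0.87 below that control's 9.22, and its Nr1d1 of 9.25 was 1.2 above that control's 8.05. These pooled correlations mix 2 groups and are given with no test.

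**Figure D4:**
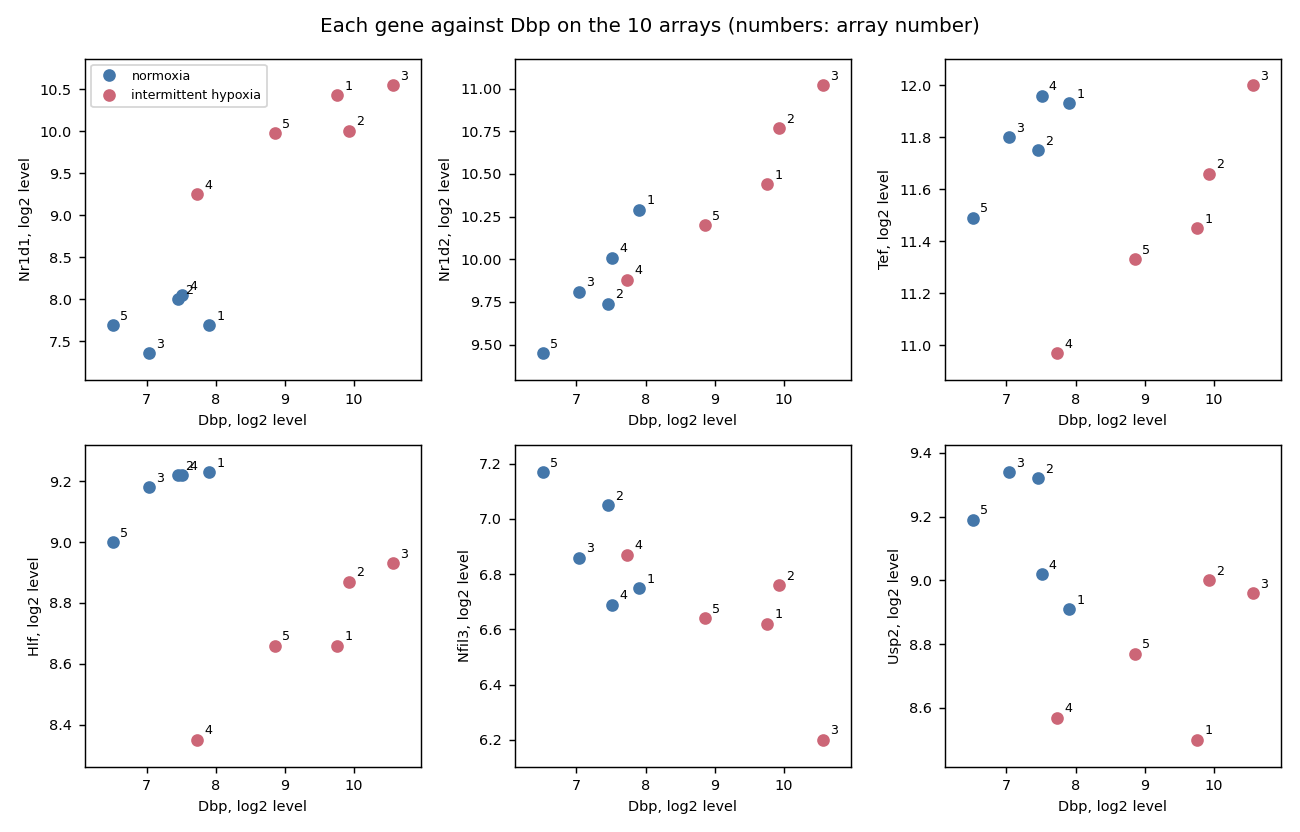
Log2 level of 6 genes (vertical axes) against the log2 level of Dbp (horizontal axes) on the 10 arrays, with array numbers. Nr1d2 lies near a single line through both groups (r = 0.95 over all arrays). Even so, its value on hypoxia array 4 (9.88) is below that on normoxia array 4 (10.01) at a higher Dbp. Tef and Hlf rise with Dbp along more clearly separate lines in the groups, the hypoxia line lying lower.

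Most of the set ranked high among all genes by this within-group likeness to Dbp. Of 12392 other genes, 0.387% had r of at least 0.8 with Dbp, and 5 of the other 7 genes of the set did, namely Tef, Nr1d2, Hlf, Rora and Nr1d1. Tef was the third highest, Nr1d2 the fourth and Hlf the fifth. Usp2 was far down, at r = 0.25 and rank 3523, and Nfil3 had -0.74. The r of Nr1d1 was 0.38 without hypoxia arrays 3 and 4, as given above. The highest was Per3 (0.966), a period gene that is no member, followed by Armcx4 (0.950), and Zfp553, Pradc1 and Pcnx had 0.923, 0.902 and 0.897. The lowest were Stk10 (-0.950), Npas2 (-0.927), Fes (-0.924), Abo (-0.918) and Ndufaf4 (-0.913). Npas2 is a partner of BMAL1 and a textbook target of REV-ERB repression. These are descriptions over 10 arrays of the same lungs.

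By levels over the 10 arrays, which include the group difference, the genes most like Nr1d1 were Calhm5 (r = 0.972), Plekhg2 (0.960), Mrps28 (0.958), Pdzrn3 (0.957) and Ranbp1 (0.954). Their log2 differences ran from 0.28 for Ranbp1 to 0.62 for Pdzrn3, far below the 2.29 of Nr1d1. Those most like Dbp were Pkia (0.940), Mbnl1 (0.938), Bag6 (0.930), Trim12a (0.928) and Lama2 (0.927). Those most like Hlf were Flcn (0.948), Klhl2 (0.938), Sult1a1 (0.936), Glul (0.934) and Bex1 (0.925), with differences from -0.78 for Sult1a1 to -0.23 for Flcn.

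The spread between animals was wider in the exposed lungs for all 8 genes. The SD of the hypoxia arrays exceeded that of the normoxia arrays in 8 of 8, against 38.4% of all genes, and the median ratio of the SDs was 1.63 in the set and 0.853 over all genes. Dbp had SDs of 1.10 and 0.53. Without hypoxia array 4 the count was 7 of 8 with a ratio of 1.21, and without hypoxia arrays 3 and 4 it was 4 of 8 with 0.966. This was not tested.

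Beside the set, 12 of 14 listed core clock genes were measured, and 1 was higher and 2 lower in the limma fit, with a median of -0.13 against 0.01 over all genes, of which 8.93% were higher and 3.6% lower. Bhlhe40, a repressor of E-box genes, was higher by 0.44 (SE 0.08, limma adjusted p = 0.00915), and Cry1 and Per2, repressors of BMAL1 and CLOCK, were lower by log2 differences of -0.93 (SE 0.10, adjusted p = 0.00106) and -1.29 (SE 0.28, adjusted p = 0.0159). Of these 3, Cry1 passed without normoxia arrays 2 to 4 (adjusted p = 0.0460). A second Per2 probe set had -0.30 (SE 0.09) and did not pass (adjusted p = 0.0505). The 9 that did not pass were Per1 (-0.30), Per3 (-0.24), Npas2 (-0.17), Cry2 (-0.14), Bhlhe41 (-0.11), Arntl (-0.06), Rorb (0.00), Clock (0.04) and Arntl2 (0.04). Per3, the closest to Dbp within groups, had other probe sets at 0.16 and -0.13.

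Over all genes 8.93% were higher and 3.6% lower. Of 4 measured co-repressor genes through which REV-ERBα acts, 1 was higher, Tbl1x (0.40, SE 0.08, limma adjusted p = 0.0106), and the median was 0.03. Of 8 clock kinase and ubiquitin ligase genes 1 was lower, Csnk1e, a kinase of the period proteins (-0.25, SE 0.06, adjusted p = 0.0285), with a median of -0.07. Dropping normoxia 2 or 4 or hypoxia 2, 3 or 4 ended this call (adjusted p up to 0.0719), as did averaging its probe sets (-0.14, adjusted p = 0.156). Its difference was -0.40 after quantile normalization. Tbl1x had 0.23 there.

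Of 11 measured genes that REV-ERB proteins repress, in other tissues or, as for Cxcl5, in airway club cells, 1 was lower, Cry1. None was higher, and of all genes 3.6% were lower and 8.93% higher. The median log2 difference was -0.01. Many of these genes were dim, with mean levels at a median percentile of 28 among probe sets and 3.14 at the lowest. Genes not expressed and genes not changed cannot be told apart at such levels. Nfil3 is one of the 11 and also a member of the set. Cxcl5, a neutrophil chemokine that REV-ERBα restrains in airway club cells, was named after its values were seen. It read 8.00 on hypoxia array 4, against 4.44 to 4.86 on the other hypoxia arrays and 4.85 to 5.60 in normoxia. Hypoxia array 4 was the exposed lung with the least Nr1d1 and Dbp. Its Nr1d1 of 9.25 was still above every control (7.36 to 8.05), and no relation to Cxcl5 was tested. The log2 difference of Cxcl5 was 0.04 (SE 0.54, limma adjusted p = 0.965). Without hypoxia array 4 it was -0.63 (SE 0.14), a value with no test because the array was picked for its Cxcl5 level.

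Of 9 measured PAR bZIP target genes 3 were lower and none higher, beside 3.6% and 8.93% of all genes, with a median of -0.24. Besides Per2 these were Cyp2b10 (-0.40, SE 0.09, limma adjusted p = 0.0184), a drug-metabolising cytochrome P450, and Nr1i3 (-0.44, SE 0.10, adjusted p = 0.0178), the receptor CAR that induces it. Nr1i3 was dim, with a mean of 6.24, above that of 24.6% of probe sets, and a link between it and Cyp2b10 was not tested. Nr1i3 lost its call without normoxia array 4 (adjusted p = 0.0538), and without normoxia arrays 2 to 4 its difference was -0.23. None of the 3 passed in that setting (adjusted p = 0.490 for Nr1i3, 0.273 for Cyp2b10 and 0.381 for Per2). Of 6 other clock outputs 1 was lower, Cdkn1a, the cell cycle inhibitor p21 (-0.74, SE 0.13, adjusted p = 0.00697), with a median of -0.20.

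Some markers of other cell types moved beside these differences. Over all genes 8.93% passed as higher and 3.6% as lower. Of 5 B cell markers 3 were higher, with the list's mean deviation spanning -0.71 to -0.03 in normoxia and, after exposure, -0.09 to 0.70. Of 5 T cell markers 2 were higher (from -0.16 to 0.01 and from -0.12 to 0.27). Of 5 adipose markers 1 was lower (from -0.16 to 0.89 and from -0.93 to 0.04), of 5 neutrophil markers 1 (from -0.46 to 0.89 and from -0.35 to 0.17) and of 4 red cell markers 1 (from 0.04 to 0.43 and from -0.38 to -0.11). Of 5 liver markers 1 was higher (from -0.50 to 0.05 and from -0.49 to 0.86), and none of 7 skeletal muscle (from -0.51 to 3.84 and from -0.59 to -0.34) or 7 cardiac markers passed (from -0.33 to 0.14 and from -0.68 to 0.25). By sign, 4 of the 5 B cell, 3 of the 5 T cell and 4 of the 5 liver differences were positive. All adipose, neutrophil and red cell differences were negative. A log2 scale has no zero, so no marker could be called absent. The part of these cells in the differences of the 8 genes was not tested. Hypoxia array 4 was the lowest exposed lung for all 7 cardiac markers, with Nppa at 7.52 against 9.74 to 10.33 on the other hypoxia arrays. It was also the lowest of the 10 arrays for Adipoq (6.02), Fabp4 (8.05), Cidec (5.23) and Retn (9.01), though not for Lep. These genes were named after their values were seen. Whether this bears on the within-group correlations was not tested. Without normoxia array 2, the array with muscle transcripts, the log2 differences were 2.35 for Nr1d1, 2.13 for Dbp, 0.57 for Nr1d2, -0.46 for Hlf, -0.36 for Usp2, -0.31 for Tef, -0.25 for Nfil3 and -0.25 for Rora.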

How the data were processed

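Total RNA of whole lung was measured on 10 arrays, 5 in normoxia and 5 in intermittent hypoxia, 1 mouse each per the series' design text. The authors deposited log2 values for each probe set. Per the submitters' processing notes the tools were RMA and affy, with no version stated, and the arrays' unequal spread leaves their normalization uncertain. No per-probe detection calls were used here and precision is limited by how many arrays there are. Of 22626 probe sets 20380 carried 1 symbol, 691 several and 1555 none.

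All probe sets were fitted with limma 3.58.1 under R 4.3.3 (lmFit, eBayes). Tests were two-sided, adjusted by Benjamini-Hochberg over all probe sets, at 0.05. SAM, which the design text names, was an alternative with 100 permutations. Within-group correlations of the 28 pairs were tested with all 14400 within-group permutations, in Python 3.11.15 with scipy 1.17.1. The scripts were tested on simulated data.

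The members and lists were chosen with earlier results of these data known. Beside the 8 genes, the naming rule took every measured core clock gene, up to 4 called genes of each other pathway list, and the 5 genes most like Nr1d1, Dbp and Hlf. Per-sample columns left unused numbered 0. Arrays with the same replicate number did not deviate together over all probe sets (correlations from -0.24 to 0.223), and the main fit used no pairing. Correlations over all probe sets cannot exclude a pairing that moved few genes.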

Additional observations from a re-analysis of the deposited data

Results flagged for a closer look

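Hlf on normoxia array 5, at 9.0, lay below the other 4 controls at 9.18 to 9.23, and its gap to the nearest was 0.783 of the group's range, above the limit of 0.71 for 5 samples. On the chosen probe sets the same array had the lowest Dbp, Nr1d2 and Tef and the highest Nfil3 and Arntl of the controls. On the second Hlf probe set it read 8.45, as did normoxia array 2. It was not the lowest control on the other probe sets of Dbp, Nr1d2 and Tef. Of 16 groups examined 1 was marked in this way, and chance marks about 1 in 20.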

How the results depend on the processing

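The signs of the 8 differences held in every alternative run, except that Nfil3 had no value where probe sets below the median level were dropped. A further Tef probe set had the opposite sign (0.12). Past the threshold were 2699 probe sets, and 1755 in a fit with the replicate number as a block. How many were shared was not counted, and the same number of members (4) and of pathway genes (8) passed as without it. The count was 4954 at an adjusted p below 0.10, and 16 without normoxia arrays 2 to 4, where 1 member and 1 pathway gene passed. With 1 array left out it ran from 1003 to 4800, that of members from 3 to 5 and that of pathway genes from 7 to 10. Of 28 within-group pairs 13 passed, 7 to 14 with 1 array left out (fewest without hypoxia array 3), 6 when probe sets were averaged per gene and 0 without the 2 arrays farthest from the median, where 7 had an exact permutation p under 0.05 before adjustment. Of the 8 pairs with Arntl, chosen with its order beside Dbp known and so no independent support, 6 had an adjusted exact permutation p under 0.05, 0 to 6 with 1 array left out, 0 without normoxia array 5, hypoxia array 3 or hypoxia array 4 (3, 4 and 5 before adjustment) and 0 without the 2 farthest arrays (0 before adjustment). All 13 and all 6 signs held throughout. Fewer arrays leave fewer permutations, and other causes were not tested.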

Other observations

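Il6, an inflammatory cytokine on the list of REV-ERB-repressed genes and named here after its values were seen, read 5.94 on hypoxia array 4 and 5.43 on hypoxia array 5. The other 8 arrays lay between 4.46 and 4.73. These were the 2 exposed lungs with the lowest Dbp, Nr1d1, Nr1d2 and Tef, and hypoxia array 4 also had the high Cxcl5 value given above. Their Nr1d1 of 9.25 and 9.98 was still above every control (7.36 to 8.05), and Il6 in the controls was 4.46 to 4.69. The mean level of Il6 over the 10 arrays was low, above that of 4.98% of probe sets. No test was made of this relation.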
